A study of Mus musculus with 32 samples.

Results

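Extracellular vesicles (EVs) and soluble factors (SFs) secreted by the same human lung fibroblasts were compared for what they did to the mouse fibroblasts of lung organoids, with 4 libraries for each treatment out of the 32 of the series. The libraries were taken by treatment and cell population as labelled, and all 11818 genes of the deposited count table were carried, of which 11406 passed the filter on low counts. The organoids held freshly isolated mouse Epcam+ lung cells, from 4 mice, mixed at equal numbers with growth-arrested CCL206 cells, which are an established line of mouse lung fibroblasts. Cultures were treated for 72 h, digested, and re-sorted with Epcam (CD326) microbeads, and the CCL206 fraction is the one described here. The EVs and SFs came from MRC5 cells, a human fetal lung fibroblast line. No genotype or transgene was involved, and vehicle-treated CCL206 fractions (4 libraries) served as the reference for levels.

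The mouse number gave 4 pairs, each of 1 EV and 1 SF culture seeded with epithelial cells of the same animal. The fibroblasts were in every culture the same line, so a pair shared the animal of its epithelium and not of its fibroblasts. EVs were dosed by particle number and SFs by protein mass, so that the amounts were not matched and a dose difference cannot be told apart from a difference in kind. 

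EVs are membrane-bound particles that carry protein, lipid and RNA between cells, and soluble factors are the free secreted proteins that remain once particles are separated off, growth factors, cytokines and matrix proteins among them. Lung fibroblasts receive both kinds of signal and answer them through matrix genes, growth factors for the epithelium such as Fgf7, Fgf10 and Hgf, and fast transcription factors. In organoids the fibroblasts provide the signals on which the epithelial cells grow.

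The EV and SF libraries held 3105312 to 7605452 and 5247496 to 5909843 counts. The summed level of 14 fibroblast markers was 15040 to 21094 CPM (counts scaled to a common library total and composition) with EVs and 17753 to 19243 CPM with SFs. Fibroblast markers were thus present at high levels in every library. Their level was not compared with that of the Epcam+ fractions. Some libraries stood apart. In the EV libraries of mice 2 and 4, expression followed transcript length, and in the EV library of mouse 1 the mitochondrially encoded transcripts took 3.11% of counts, against 1.10% to 1.53% in the EV libraries of the other mice and 2.42% to 2.85% in the SF libraries. Transcripts of the sorted-off epithelium were present in every library. The summed level of 16 alveolar type 2 (AT2) and epithelial markers was 3225 to 4558 CPM with EVs, 1776 to 3745 CPM with SFs and 2107 to 5395 CPM with vehicle, and none of these markers was at 0. In mice 1 to 4 it was 3563, 4558, 3225 and 4442 CPM with EVs, against 3745, 2499, 2879 and 1776 CPM with SFs. The medians of the Epcam+ fractions were 17893 CPM with EVs and 19173 CPM with SFs. The same calculation gave 4025 and 2712 CPM in the CCL206 fractions. Of the macrophage list 3 genes were in the table (Cd68, Lyz2 and Cd74), at a summed 138 to 186 CPM with EVs and 75.1 to 169 CPM with SFs, and of the endothelial list Vwf, at or under 2.36 CPM in every EV and SF library.

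No gene passed an adjusted p of 0.05 in the paired edgeR quasi-likelihood test on these 8 libraries, which is 0% of the 11406 genes tested. The lowest adjusted p was 0.126. At an unadjusted p under 0.05, 3251 genes differed, 1687 of them higher with EVs and 1564 higher with SFs. The paired DESeq2 Wald test on the same 8 libraries, the tool the study used, called 1012 genes, 491 higher with EVs (4.3% of genes tested) and 521 higher with SFs (4.57%). An edgeR fit over all 16 CCL206 libraries, which takes its error from the vehicle and osteoglycin (OGN) cultures as well, called 1852 genes higher with EVs (15.8% of 11689) and 1528 higher with SFs (13.1%). Of the 1012 DESeq2 calls, 1000 were among those of the 16-library fit. Whether a gene counted as different thus depended on how the error was estimated, and levels in every library are given below.

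**Figure D1:**
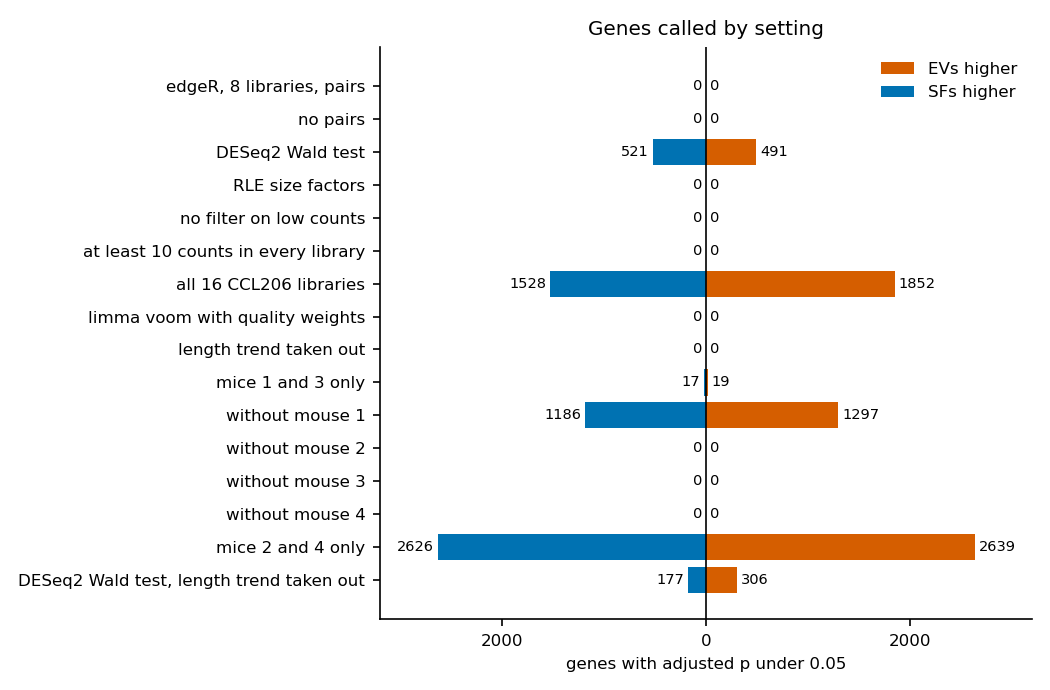
Genes with an adjusted p under 0.05 between EVs and SFs in CCL206 fibroblasts, by setting; bars to the right count genes higher with EVs and bars to the left genes higher with SFs. The paired edgeR fit on 8 libraries called 0 genes, the same fit without mouse 1 called 2483 and the pairs of mice 2 and 4 alone called 5265.

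Direction over the 4 pairs was used as the measure of consistency. EVs were higher in 4 of 4 pairs for 1916 genes (16.8% of 11406) and SFs were higher in 4 of 4 for 1933 genes (16.9%). The pairs were not alike. The median absolute difference between EVs and SFs was 0.17 on the log2 CPM scale in mouse 1, 0.25 in mouse 3, 0.48 in mouse 2 and 0.62 in mouse 4. Across genes, which are not independent replicates, the differences of mice 2 and 4 correlated with Pearson's r = 0.73, those of mice 3 and 4 with r = 0.47 and those of mice 2 and 3 with r = 0.43, while mouse 1 correlated with the others at r = -0.01 to 0.12. The pair of mouse 1 was therefore the smallest in size and had little in common with the other 3 across all genes.

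Transcript length moved with these differences. In the pair of mouse 4, a median log2 difference of 0.99 was found for the 1130 genes of at most 1340 nt, the shortest decile, and a median of -1.02 for the 1129 genes of the longest decile. The corresponding medians were 0.78 and -0.78 in mouse 2, 0.15 and -0.23 in mouse 3, and 0.07 and -0.06 in mouse 1. Spearman's rho between length and difference was -0.60, -0.57, -0.28 and -0.14 in the same order of mice 4, 2, 3 and 1. Genes with short transcripts were on the whole higher with EVs in mice 2 and 4. The trend was taken out library by library with a smooth curve, and values given as length-corrected come from that fit. After this step EVs were higher in 4 of 4 pairs for 1730 genes (15.3% of 11284 with a length) and SFs for 1521 (13.5%). The direction held in 4 of 4 pairs both before and after the correction for 1278 genes higher with EVs and 1136 higher with SFs. The cause of the length trend was not tested.

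**Figure D2:**
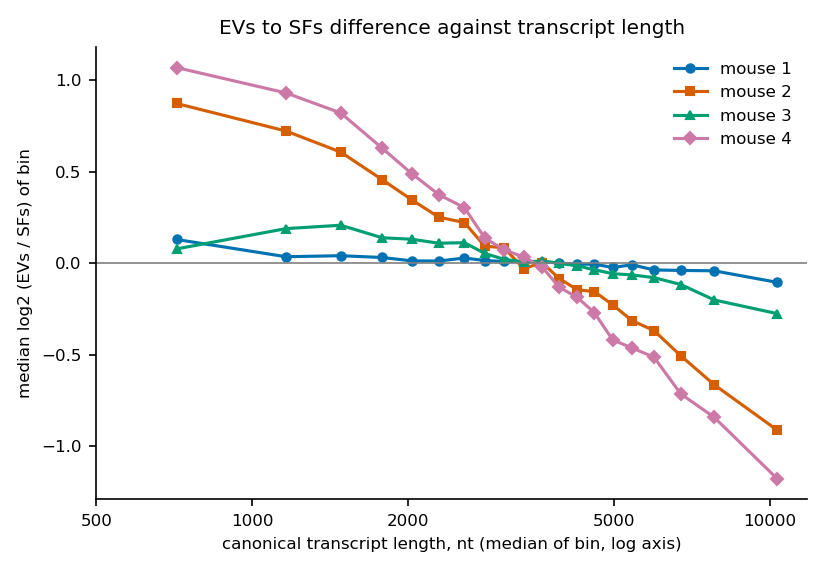
Median log2 ratio of EVs to SFs in each of 20 bins of transcript length (log axis, nt), with a line for each mouse. The lines of mice 2 and 4 fall from above 0 at short to below 0 at long transcripts, mouse 3 falls less and mouse 1 least.

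The genes with the smallest p in 4 of 4 pairs are described next, and since none passed the adjusted threshold they were chosen after their values were seen. Cebpb, a bZIP transcription factor of inflammatory and differentiation programmes, stood first among those higher with EVs. Its level with EVs was 147, 145, 144 and 153 CPM in mice 1 to 4, against 60.7, 19.4, 41.7 and 49.7 CPM with SFs. Vehicle cultures held 17.6, 86, 79.7 and 61.4 CPM, so the EV libraries lay above all SF and vehicle libraries, close to each other, and the SF and vehicle ranges overlapped. The fitted EV level was 3.66-fold that of SFs (log2 fold change 1.87, SE 0.25, edgeR adjusted p = 0.126, higher in 4 of 4 pairs). The length-corrected log2 fold change was 1.49 with an adjusted p of 0.0625, and DESeq2 gave an adjusted p of 8.6e-10. In the pairs of mice 1 and 3, without the libraries of the strongest length trend, Cebpb had the smallest adjusted p of all genes (1.35e-17, edgeR with 1 residual degree of freedom). These 2 pairs are among the 4 by which Cebpb was chosen, so this rank is no separate support.

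Igfbp7, a secreted insulin-like growth factor binding protein of the matrix, had 172, 227, 163 and 249 CPM with EVs and 104, 82.2, 80.9 and 82.4 CPM with SFs. Vehicle libraries had 60.6 to 99.1 CPM, which overlapped with the SF range, and all EV libraries were above both groups. The log2 fold change was 1.20 (SE 0.17, adjusted p = 0.126), and it was 1.40 when length-corrected (adjusted p = 0.0625). Its canonical transcript of 5339 nt is longer than the median of 3484 nt, so that by this length the trend ran against its direction. Which form of the transcript was expressed was not tested, and the corrected value rests on the canonical length.

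Ier2, an immediate early gene, read 138, 238, 99.9 and 193 CPM with EVs against 90, 80.3, 56.3 and 61.5 CPM with SFs. Vehicle libraries of mice 1 and 2 (142 and 160 CPM) were above those of mice 3 and 4 (58.9 and 52.5 CPM), and the vehicle and EV ranges overlapped. The log2 fold change was 1.17 (SE 0.20) and 0.79 when length-corrected. Gadd45g, a stress-induced regulator of growth arrest, had 31, 55.2, 30.6 and 55.2 CPM with EVs and 17.5, 10.6, 16 and 16 CPM with SFs. Its vehicle libraries spanned 14.2 to 36.6 CPM and again overlapped with the EV group. Plau, the urokinase plasminogen activator, had 77.5 to 110 CPM with EVs and 46.3 to 53.9 CPM with SFs, with a log2 fold change of 0.92 (SE 0.16). Vamp5, a vesicle fusion protein of muscle-like cells, differed by nearly the same amount in each pair (log2 differences of 1.13, 1.06, 1.07 and 1.10) as measured. With the length correction of this 754-nt transcript the pairs came to 1.05, 0.21, 0.93 and 0.07, and the log2 fold change went from 1.10 to 0.55 (adjusted p = 0.15).

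Of the genes higher with SFs, Npr3 had the smallest p. It encodes the natriuretic peptide clearance receptor. SF libraries read 142, 127, 162 and 152 CPM, EV libraries 81.6, 58.5, 94.4 and 64.4 CPM and vehicle libraries 120 to 127 CPM. All EV libraries were thus below all vehicle and SF libraries. All 4 SF libraries were above the vehicle range, that of mouse 2 by under 1 CPM. The log2 fold change was -0.98 (SE 0.14, edgeR adjusted p = 0.126, DESeq2 0.000435, lower with EVs in 4 of 4 pairs). It was -1.06 when length-corrected (edgeR adjusted p = 0.0625, DESeq2 2.46e-07). Npr3, Cebpb and Igfbp7 were the genes with the lowest adjusted p in the length-corrected edgeR fit.

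Cemip, a hyaluronan-degrading factor, had 60.2, 40.9, 75.5 and 27 CPM with EVs and 93.5, 107, 127 and 122 CPM with SFs, and the vehicle range of 109 to 136 CPM did not overlap with EVs. Its log2 fold change was -1.21 (SE 0.25) and -0.85 when length-corrected. Irag1, which couples cGMP-dependent kinase to calcium release, read 29.8, 12.9, 19.4 and 11.4 CPM with EVs and 38.6, 44.1, 52.2 and 45.1 CPM with SFs, with vehicle at 54.1 to 64.8 CPM. Here the SF libraries were also under all vehicle libraries. Clic5, a chloride channel family protein that binds the cortical cytoskeleton, was lower with EVs by log2 differences of -0.94, -0.94, -0.86 and -1.65. Mrtfb, a coactivator of serum response factor (SRF), had a log2 fold change of -1.19 (SE 0.25), and -0.74 when length-corrected. Usf3, Zfhx4, Zbtb37, Usp49 and Zfp846 completed the 10 genes with the smallest p and had long canonical transcripts of 9155 to 18811 nt. Their log2 fold changes of -1.12 to -1.77 came to -0.20 to -1.32 when length-corrected, with Zbtb37 at -0.20 and an adjusted p of 0.66.

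**Figure D3:**
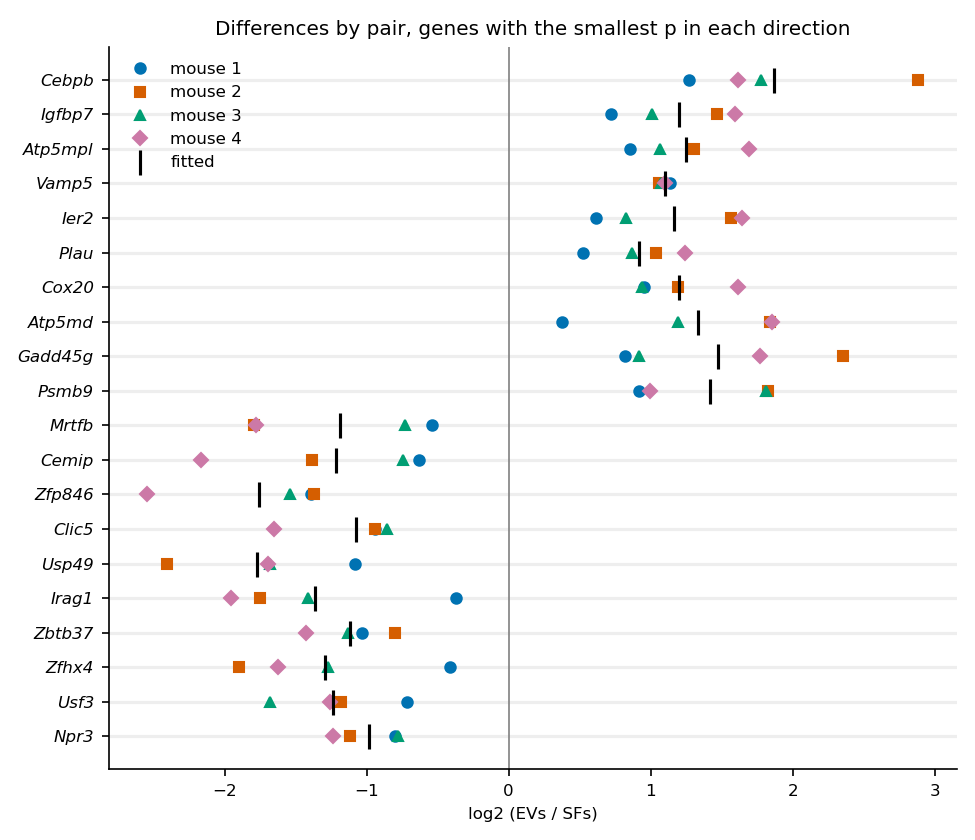
Log2 ratio of EVs to SFs in each pair (coloured points) for the 10 genes with the smallest p in each direction among those with the same sign in 4 of 4 pairs; the black mark is the edgeR estimate. Mouse 1 is often the smallest difference, and for Vamp5 the 4 pairs nearly coincide before any length correction (0.07 to 1.05 after it).

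By size, among genes with a mean of at least 5 CPM and the same sign in 4 of 4 pairs, Gm11249 (log2 fold change 2.43, SE 0.54), Cebpb and Morn2 (1.71, SE 0.38) were the most different on the EV side and Muc4 (-1.87, SE 0.53), Usp49 and Zfp846 on the SF side. Muc4, a membrane mucin, spanned 0.549 to 7.68 CPM with EVs and 8.08 to 18 CPM with SFs, and its counts with EVs went down to 2. The folds of the others rest on low counts too, since Gm11249 had 13, 2, 8 and 12 counts in the SF libraries, and the EV libraries went down to 5 counts for Zfp846 and 7 for Usp49. A stricter set held its direction in 4 of 4 pairs before and after length correction and was called by DESeq2 with and without the correction and by the 16-library fit. It had 108 genes higher with EVs, with Cebpb, Igfbp7, Ier2, Plau, Gadd45g, Ccn1, Tap2 and Gsta4 among them, and 75 higher with SFs, with Npr3, Cemip, Irag1, Thbs2, Bgn, Adamts7 and Cxcl1 among them. These fits share the same libraries and are no independent evidence of each other.

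**Figure D4:**
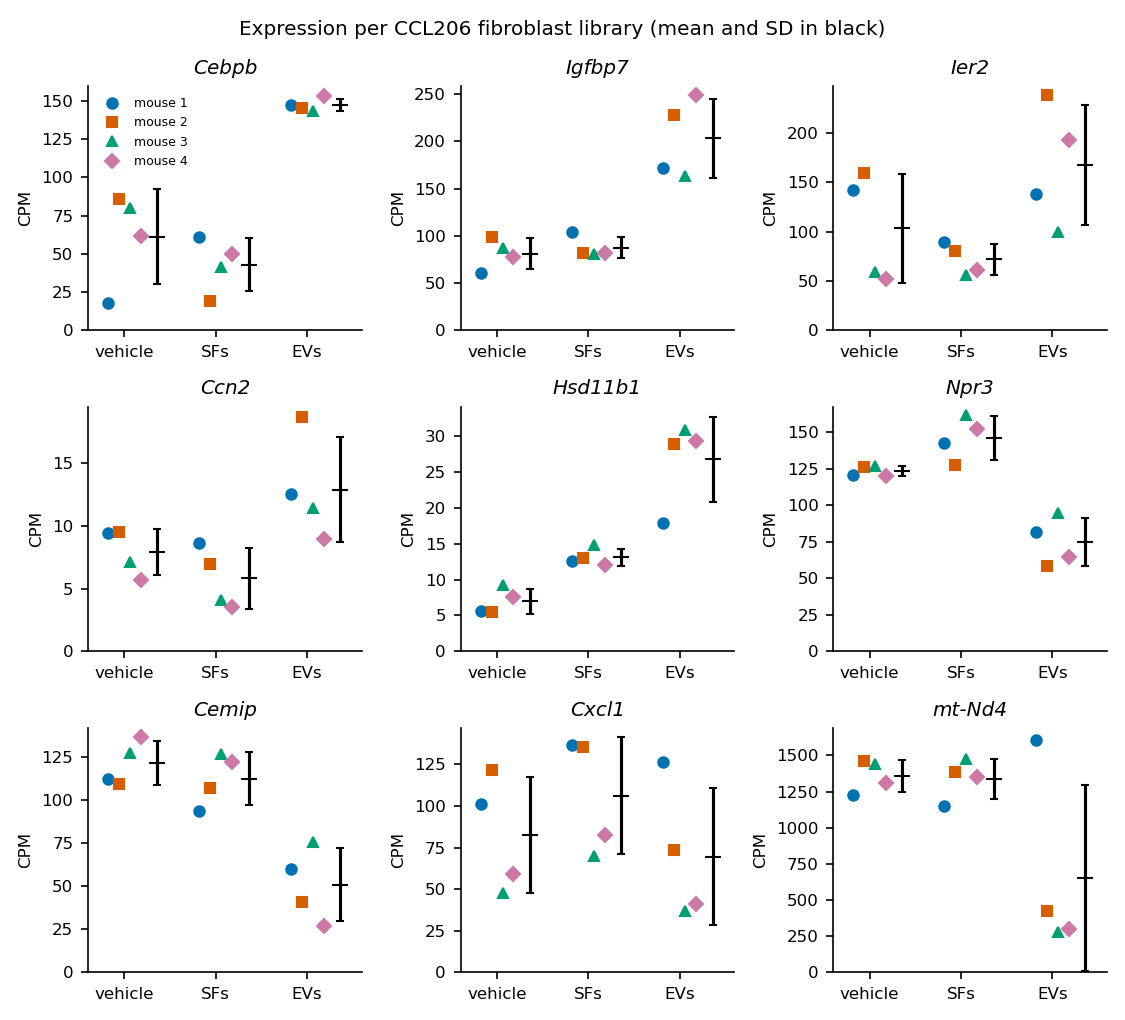
Level (CPM, linear axis from 0) of 9 genes in the vehicle, SF and EV libraries of CCL206 fibroblasts, by mouse, with the mean and SD (n = 4) in black. For Cebpb, Igfbp7 and Hsd11b1 all 4 EV libraries lie above the SF libraries, for Npr3 and Cemip below, and mt-Nd4 is low in the EV libraries of mice 2, 3 and 4 and high in that of mouse 1.

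Hsd11b1, the reductase that regenerates active glucocorticoid, differed from vehicle under both treatments. Vehicle libraries had 5.5 to 9.18 CPM, SF libraries 12.6, 13, 14.8 and 12 CPM and EV libraries 17.9, 28.8, 30.8 and 29.3 CPM, and the 3 groups did not overlap. EVs over SFs came to a log2 fold change of 1.01 (SE 0.21, adjusted p = 0.126, higher in 4 of 4 pairs), and 0.67 when length-corrected. The acute-phase genes Lcn2 and Saa3 and the chitinase-like Chil1 were above the vehicle library of the same mouse in every library of both treatments, and their EV and SF ranges overlapped. Lcn2, a siderophore-binding lipocalin, had 41.2 to 51.3 CPM with EVs, 41.7 to 65.9 CPM with SFs and 8.12 to 13.8 CPM with vehicle, and EVs and SFs differed by a log2 fold change of -0.22 (SE 0.19, adjusted p = 0.452). Saa3 read 6.72 to 18.4 CPM with EVs and 12.1 to 18.4 CPM with SFs, and at most 1.18 CPM with vehicle (log2 fold change -0.36, SE 0.30). Length correction moved Lcn2 to -0.72, with an adjusted p of 0.102 in edgeR and 0.00574 in DESeq2, and Saa3 to -0.86 (edgeR adjusted p = 0.107), both lower with EVs in 4 of 4 corrected pairs. The alarmin Il33 had a log2 fold change of -0.07 (SE 0.15).

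Adamts7, a secreted metalloproteinase, showed the opposite layout. SF libraries had 74.3, 69.8, 83.7 and 78.5 CPM, while EV libraries (41.9, 40.4, 64.6 and 39.6 CPM) were near vehicle (44.4 to 47.3 CPM), apart from mouse 3. EVs were lower than SFs in 4 of 4 pairs with a log2 fold change of -0.74 (SE 0.16, adjusted p = 0.126).

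Gene groups were described by their counts and medians, beside a median log2 fold change over all genes tested of -0.0003 and the shares over all genes given above (16.8% higher and 16.9% lower with EVs in 4 of 4 pairs, 15.3% and 13.5% when length-corrected). Short-transcript housekeeping groups were highest. Of 82 cytosolic ribosomal protein genes, 42 were higher with EVs in 4 of 4 pairs and 0 lower, with a median log2 fold change of 0.61. By pair the median was 0.07, 1.00, 0.18 and 1.17 in mice 1 to 4. After length correction the median came to 0.23, with 23 genes higher and 5 lower in 4 of 4 pairs. The 16-library fit called 60 of the 82 higher and 0 lower. Rps20 read 477, 1229, 782 and 1724 CPM with EVs against 350 to 426 CPM with SFs, and Rpl34 153 to 362 CPM against 102 to 126 CPM. Ribosomal protein genes have many processed pseudogenes that could share their reads, so the values of single members are uncertain.

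Nuclear-encoded subunits of the respiratory chain gave a similar picture, with 33 of 77 genes higher in 4 of 4 pairs, 0 lower and a median of 0.67. When length-corrected, 21 were higher and 4 lower, with a median of 0.26. Cox6a1, a subunit of cytochrome c oxidase, had 91.9, 218, 123 and 260 CPM with EVs and 57.3 to 75.8 CPM with SFs (log2 fold change 1.29, SE 0.25), and the length correction of its 571-nt transcript took 1.29 to 0.71. Atp5mpl and Atp5md, small subunits of ATP synthase, had log2 fold changes of 1.25 and 1.33, with no matched length. For the heat shock and proteasome list the median was 0.54, with 11 of 26 genes higher in 4 of 4 pairs and 0 lower, and 0.21 when length-corrected, with 5 higher and 1 lower. The proteasome subunit Psma3 had a log2 fold change of 0.80 in both fits. Its canonical length of 3593 nt is near the median of 3484 nt, so by this length the correction could move it little. Psma7, at 944 nt, went from 0.87 to 0.36.

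Transcripts of the mitochondrial genome ran against their short length. In mice 2, 3 and 4 their median log2 difference was -0.44, -1.55 and -0.91, and in mouse 1 it was 0.44. Over the 16 genes tested the median of the fit was -0.57, and -1.05 when length-corrected, and none had the same sign in 4 of 4 pairs as measured. mt-Nd4, a subunit of complex I, had 425, 278 and 299 CPM with EVs in mice 2, 3 and 4, far below the 1382, 1478 and 1349 CPM of their SF partners. In mouse 1 it had 1609 CPM with EVs and 1149 CPM with SFs. mt-Nd5 followed the same layout, at 4373, 1110, 860 and 556 CPM with EVs and 3280 to 4284 CPM with SFs. mt-Cytb, of complex III, had 4785, 2107, 1362 and 1913 CPM with EVs and 3836 to 4661 CPM with SFs. The EV library of mouse 3, the deepest of the EV libraries and with a weaker length trend than mice 2 and 4, was among the lowest for these genes. The nuclear and mitochondrial subunits of the same chain thus lay on opposite sides of 0 in mice 2, 3 and 4.

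**Figure D5:**
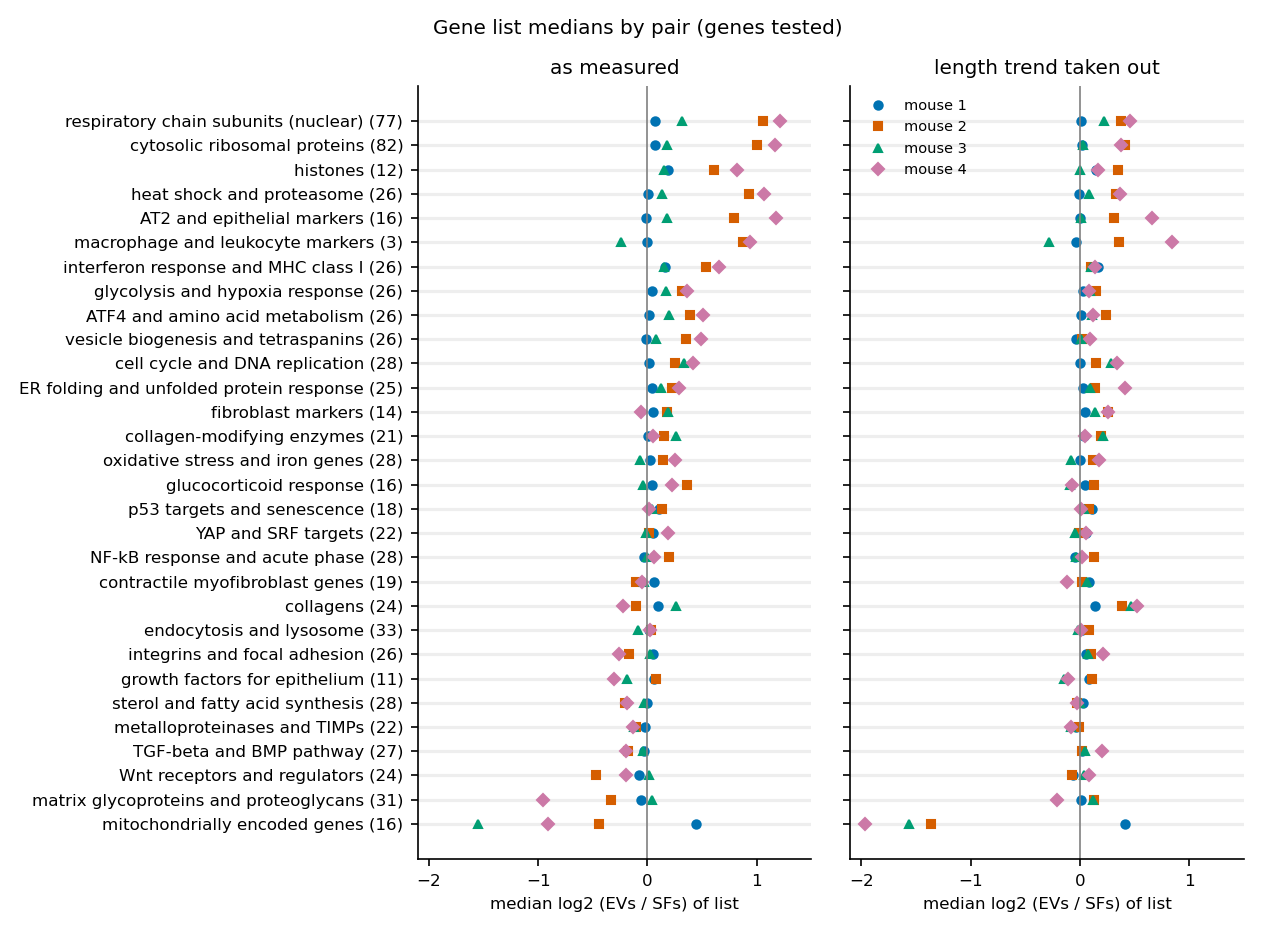
Median log2 ratio of EVs to SFs for 30 gene lists in each pair, as measured (left) and with the length trend taken out (right), ordered by the fitted median; the number of genes tested is in brackets. Ribosomal and nuclear respiratory chain genes shift towards 0 on the right, collagens move above 0 in all 4 pairs, and mitochondrially encoded genes stay low in mice 2, 3 and 4.

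Collagens had a median log2 fold change of -0.01 as measured, with 4 of 24 higher and 4 lower with EVs in 4 of 4 pairs, about the shares over all genes (16.8% and 16.9%). The median was 0.31 when length-corrected, with 12 higher and 2 lower. The length-corrected medians by pair were 0.13, 0.39, 0.47 and 0.52. Col1a1, the main chain of type I collagen, had 1828, 2028, 2791 and 2050 CPM with EVs and 1644, 1672, 1718 and 1700 CPM with SFs, with no overlap. Its log2 fold change was 0.35 (SE 0.16, adjusted p = 0.188) and 0.61 when length-corrected (adjusted p = 0.102). Col16a1, a fibril-associated collagen, came to 0.43 and 0.67. Col6a3 was lower with EVs in 4 of 4 pairs, most in mouse 4 (497 against 1710 CPM), and its log2 fold change of -0.75 came to -0.25 with the correction.

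Of 31 matrix glycoproteins and proteoglycans, 10 were lower with EVs in 4 of 4 pairs and 4 higher, with a median of -0.30. When length-corrected, 6 were lower and 7 higher and the median was 0.04, so the imbalance was not kept. Bgn, the small proteoglycan biglycan, kept its size. It had 1913, 1202, 1323 and 1036 CPM with EVs and 2025 to 2291 CPM with SFs, and its log2 fold change was -0.72 (SE 0.20) and -0.88 when length-corrected. Thbs2, an anti-angiogenic matricellular protein, had 43.9, 18.7, 35.9 and 18.7 CPM with EVs and 54 to 59.8 CPM with SFs (log2 fold change -1.03, SE 0.24, and -0.77 length-corrected). Fn1, fibronectin, read 4550 and 4104 CPM with EVs in mice 1 and 3 and 2053 and 1335 CPM in mice 2 and 4, against 4663 to 5842 CPM with SFs, and its log2 fold change of -0.97 came to -0.51 with the correction. Metalloproteinases and their inhibitors had a median of -0.11, with 1 of 22 genes higher in 4 of 4 pairs and 6 lower.

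Genes driven by YAP and SRF, the coactivator and the transcription factor that respond to cell tension, had a median near 0. Of 22 tested genes, 5 were higher and 3 lower with EVs in 4 of 4 pairs, with a median of 0.03. Ccn1, Ccn2 and Ankrd1, which are among the best known targets, were on the EV side. Ccn2, connective tissue growth factor, had 12.5, 18.7, 11.4 and 8.92 CPM with EVs and 8.65, 6.98, 4.1 and 3.54 CPM with SFs, and its log2 fold change was 1.18 (SE 0.28, adjusted p = 0.126). Ccn1, a matricellular ligand of integrins, read 163, 187, 119 and 130 CPM with EVs and 135, 85.8, 73.2 and 70.6 CPM with SFs (log2 fold change 0.74, SE 0.16, and 0.50 length-corrected). Its vehicle libraries of mice 1 and 2 (246 and 234 CPM) were above every EV library and those of mice 3 and 4 (63.4 and 74.3 CPM) below. Ankrd1, a nuclear and sarcomeric ankyrin repeat protein, had 66.9, 129, 83 and 134 CPM with EVs and 58.8 to 62.1 CPM with SFs (log2 fold change 0.73, SE 0.19, and 0.48 length-corrected).

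The promoters of Ccn1 and Ankrd1 are shown because these genes were higher with EVs in 4 of 4 pairs and are classic targets of TEAD factors, the DNA-binding partners of YAP. Ccn2 meets the same terms, but it and some other members of the list had no matched promoter entry and were not searched. The sequences are from RefSeq (GRCm38.p6), read 5′ to 3′ on the strand of the gene, with the TEAD motif CATTCC, or its reverse complement GGAATG, in capitals. The Ccn1 window lies at chr3:145650071-145650100 and the Ankrd1 windows at chr19:36120037-36120066 and chr19:36119950-36119979, all on the minus strand and upstream of the annotated start.
Ccn1: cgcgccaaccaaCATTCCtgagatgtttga
Ankrd1, first window: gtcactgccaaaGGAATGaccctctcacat
Ankrd1, second window: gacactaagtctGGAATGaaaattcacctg
In the 250 bases before the start, the motif was found on either strand in 12.6% of 32851 promoters, in 10.6% of the 11428 promoters of genes tested here and in 8 of 19 promoters of the YAP and SRF list. Both promoters of Fhl2, which was also higher with EVs in 4 of 4 pairs, held 0 matches. A match is a description of these letters and not a shown binding site.

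Of 19 contractile genes, 5 were higher and 4 lower in 4 of 4 pairs, with a median of 0.01. Des, the muscle intermediate filament desmin, had a log2 fold change of 0.86 (SE 0.22) and Tpm2, a tropomyosin, 0.66 (SE 0.17), at 161 to 345 CPM with EVs and 139 to 157 CPM with SFs.

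Of 28 NF-kB and acute-phase genes, 5 were higher and 4 lower with EVs in 4 of 4 pairs, about the shares over all genes (16.8% and 16.9%), with a median of 0.02. Cxcl1, a neutrophil chemokine, was lower with EVs, at 126, 73.3, 37.2 and 41.3 CPM against 137, 135, 69.7 and 82.5 CPM with SFs. The levels depended on the mouse in all groups and overlapped, whereas each pair had the same sign (log2 fold change -0.72, SE 0.18, and -1.21 when length-corrected, DESeq2 adjusted p = 0.0187 and 0.000232). The haptoglobin gene Hp was higher with EVs (0.90, SE 0.24), with the correction taking it to 0.49 and its DESeq2 adjusted p from 0.0125 to 0.0505. In mice 1 to 4 Hp read 129, 187, 125 and 195 CPM with EVs and 106, 80.7, 95.5 and 57.8 CPM with SFs. The summed epithelial markers were likewise highest in mice 2 and 4 with EVs and lowest in mouse 4 with SFs. The part of carried-over epithelial transcripts in the Hp difference was not tested. The chemokine Ccl20 was also higher with EVs, at 5.31 to 7.25 CPM with EVs, 2.53 to 3.56 CPM with SFs and 0.786 to 2.48 CPM with vehicle (log2 fold change 1.04, and 0.52 length-corrected). In the interferon and MHC class I list, 8 of 26 genes were higher and 2 lower in 4 of 4 pairs, with a median of 0.31, and with the length correction 4 were higher and 2 lower with a median of 0.03. Psmb9, a subunit of the immunoproteasome, had 14.1, 29.4, 13.2 and 18.4 CPM with EVs and 3.56 to 9.09 CPM with SFs, and Tap2, of the peptide transporter, 115 to 189 CPM against 88.7 to 103 CPM. Nlrc5, the transactivator of MHC class I genes, was on the other side at -0.82 (SE 0.28), and at -0.43 when length-corrected, with the DESeq2 adjusted p going from 0.0421 to 0.228.

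Growth factors for the epithelium had a median of -0.08 over 11 genes tested, with 1 higher and 1 lower in 4 of 4 pairs. Hgf, hepatocyte growth factor, was the one lower with EVs, at 125, 90.1, 129 and 49.9 CPM against 138, 138, 174 and 153 CPM with SFs (log2 fold change -0.69, SE 0.22, adjusted p = 0.126, and -0.38 when length-corrected). Fgf2 had a log2 fold change of -0.58 (SE 0.22, adjusted p = 0.14) with mouse 1 at 0.04, and -0.29 when length-corrected. Fgf7 and Fgf10, both ligands of the epithelial Fgfr2b receptor, differed by 0.06 (SE 0.13) and -0.21 (SE 0.20), and Wnt5a by -0.38 (SE 0.19), which came to -0.01 with the correction. Ogn, the gene of osteoglycin, had 22.9 to 38.5 CPM with EVs and 32.3 to 36.3 CPM with SFs, both under the 39.9 to 50.7 CPM of vehicle, and a log2 fold change between EVs and SFs of -0.14 (SE 0.18, adjusted p = 0.627).

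In the ATF4 and amino acid list 9 of 26 genes were higher and 4 lower in 4 of 4 pairs (median 0.26, length-corrected 0.04), with the asparagine synthetase gene Asns at 0.47 (SE 0.14) and the cystine transporter gene Slc7a11 at -0.91 (SE 0.24). The length correction took Slc7a11, whose transcript has 9226 nt, to -0.41 and its DESeq2 adjusted p from 0.0203 to 0.26, and it took Asns to 0.63. In the TGF-beta and BMP list 5 of 27 were higher and 5 lower. Id1, an early BMP target, was higher with EVs at 0.81 (SE 0.23), and Bmpr2, a BMP receptor, was lower at -0.74. With the correction Id1 came to 0.36, its DESeq2 adjusted p going from 0.0177 to 0.127, and Bmpr2 to -0.03. Of 28 cell cycle genes 8 were higher and 0 lower in 4 of 4 pairs, with a median of 0.23 and 0.18 when length-corrected. Glycolysis and hypoxia genes had 8 of 26 higher and 0 lower, with a median of 0.27 and 0.07. Of 25 genes of protein folding in the endoplasmic reticulum, 12 were higher and 3 lower. Among the lists not taken up one by one, histones (median 0.54, length-corrected 0.12) and vesicle biogenesis genes (0.25 and -0.02) were higher with EVs by their medians as measured, and Wnt receptors and regulators lower (-0.27 and -0.06). Gsta4, which detoxifies lipid aldehydes, was higher with EVs at 81.3 to 164 CPM against 48 to 60 CPM with SFs (log2 fold change 1.03, SE 0.22, and 0.81 when length-corrected).

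The AT2 and epithelial markers had a median log2 fold change of 0.51 (0.24 length-corrected), at -0.02, 0.79, 0.18 and 1.17 in mice 1 to 4, and 4 of 16 were higher with EVs in 4 of 4 pairs. Krt19, an epithelial keratin, had 82.6, 174, 107 and 265 CPM with EVs and 86.5, 52.4, 68.1 and 35.4 CPM with SFs. Its log2 differences in mice 2 and 4 (1.73 and 2.90) were above the list medians. In the Epcam+ fractions Krt19 was itself higher with EVs in 4 of 4 pairs (log2 fold change 0.34, edgeR adjusted p = 0.0943). By their medians the markers of this list were higher with EVs in the same mice, 2 and 4, in which the ribosomal and respiratory chain genes were highest, and their part in those differences was not tested. More epithelial RNA per cell and more epithelial cells in the fraction cannot be told apart in bulk libraries.

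Whether the EV to SF difference was particular to the fibroblasts was tested against the Epcam+ fractions of the same cultures (8 libraries). No gene passed the interaction test in edgeR (0% of 11760 genes, lowest adjusted p 0.205, 2366 genes at an unadjusted p under 0.05), and the paired DESeq2 fit called 61. In the Epcam+ fractions Cebpb differed by -1.92, -1.68, 0.35 and 0.85 on the log2 scale in mice 1 to 4, and its interaction had an unadjusted p of 0.00106 and an adjusted p of 0.205. Igfbp7 had a log2 fold change of 0.23 there and Npr3 of -0.23, with edgeR interaction adjusted p-values of 0.205. The DESeq2 interaction fit gave adjusted p-values of 0.0684 for Cebpb, 0.0294 for Igfbp7 and 0.0887 for Npr3. Desmin differed by 0.89 in Epcam+ fractions and 0.86 in fibroblasts.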

How the data were processed

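RNA of re-sorted organoid fractions was sequenced. Per the labels, the authors trimmed reads with Trimmomatic 0.30 and used DESeq2 1.34.0, and they deposited whole-number counts per gene for 32 libraries; the methods name GRCm38.p6 and the labels GRCm39, and the aligner, the counter and the gene filter are not given in the sources used here. Every gene had at least 1 count in each library, so genes silent in some cultures are not analysed here.

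The 4 EV and 4 SF libraries of the CCL206 fraction were fitted with edgeR 4.0.16 (R 4.3.3, TMM, filterByExpr, quasi-likelihood F test, two-sided, mouse and treatment as terms, Benjamini-Hochberg over all genes, threshold 0.05, 3 residual degrees of freedom). The pairing comes from the shared animal of the epithelium. Deviations from the group means correlated at -0.07, -0.0008, 0.07 and 0.04 between the EV and SF libraries of mice 1 to 4, against -0.12 to 0.14 between other mice. In 12 comparisons of libraries within a group, none agreed within sampling noise (chi-square divided by its degrees of freedom at least 2.98). CPM were scaled with TMM over the 16 CCL206 libraries, and pair differences are of log2 CPM with a prior count of 2. Lengths are those of GENCODE M39 canonical transcripts, matched by symbol for 98.9% of genes, and the trend was a lowess curve (span 0.3) per library, entered as an offset. The expressed form of a gene can differ in length from the canonical one, and corrected values of single genes carry that uncertainty. Alternatives used DESeq2 1.42.0 and limma 3.58.1 voom. The edgeR, DESeq2 and voom fits and the length-corrected edgeR fit were tested on simulated data. The length-corrected DESeq2 fit and the pair, list, flag and promoter steps were not. With 8 simulated libraries the main test recovered 97 of 98 genes changed by 2 and 72 of 99 changed by 1 on the log2 scale, with 8 false calls among 11169 genes. When a length trend was put into every simulated EV library, the uncorrected test called 2951 unchanged genes of 11175 and the corrected test 9. In the data the trend was uneven and strongest in mice 2 and 4. The simulated counts therefore do not say how many changed genes the real test would find.

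Named genes were the 10 with the smallest p per direction and the 5 with the smallest length-corrected p per direction with the same sign in 4 pairs, the 3 largest changes at a mean of 5 CPM or more, 11 genes named by the study or an earlier report of these data, and up to 4 members of each list by smallest p. Members named by that last rule are extremes of their lists and not typical of them. The rule asked for an adjusted p under 0.05, which none had, so it was applied without it. The members and lists were chosen with earlier results of these data known. The paper states that multiple purification batches of EVs and SFs were used in each organoid experiment, so replicates may differ beyond the mouse. The labels do not give the batch of a culture, and differences between batches were not tested. The p-values measure the spread between these cultures.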

Additional observations from a re-analysis of the deposited data

Results flagged for a closer look

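Single libraries stood far from the other 3 of their group for 6 of 180 groups of 4 libraries (90 genes, EVs and SFs), where chance alone flags about 1 in 20. mt-Nd5 and mt-Nd4 were high in the EV library of mouse 1, at 4373 and 1609 CPM, next to 1110 and 425 CPM in the nearest of the other EV libraries. Hsd11b1 was lowest with EVs in the same mouse at 17.9 CPM, with the next at 28.8 CPM. Igfbp7 with SFs was highest in mouse 1 at 104 CPM, Tpm1 with SFs was lowest in mouse 2 at 603 CPM, and Adamts7 with EVs was highest in mouse 3 at 64.6 CPM.

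Of the 90 named genes, Ccn1 and Cox6a1 had every fibroblast pair higher with EVs and every Epcam+ pair lower. Many named genes had the same sign in 4 of 4 fibroblast pairs by choice. How many of them would show this layout by chance was not tested. The Epcam+ differences of Cox6a1 were small, at -0.02, -0.10, -0.02 and -0.15 in mice 1 to 4. The log2 fold changes were 0.74 in fibroblasts and -0.19 in Epcam+ fractions for Ccn1, and 1.29 and -0.07 for Cox6a1. In fibroblasts the length correction took them to 0.50 for Ccn1 and 0.71 for Cox6a1. The edgeR interaction test gave an unadjusted p of 0.000195 for Ccn1 and 0.000354 for Cox6a1, and an adjusted p of 0.205 for both. The DESeq2 interaction fit gave adjusted p-values of 0.0144 and 0.0153.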

How the results depend on the processing

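The paired edgeR count of 0 genes was also 0 with no replicate block (3554 at an unadjusted p under 0.05), with RLE size factors, without the filter, with at least 10 counts in every library, with limma voom quality weights and with the length trend taken out. It was 1012 with DESeq2, 3380 over all 16 libraries and 36 in mice 1 and 3 only. Chosen after seeing the data, mice 2 and 4 only gave 5265, and DESeq2 with the length trend taken out gave 483, of which 236 were among the 1012. Leaving out 1 mouse at a time gave 0 to 2483, the 2483 without mouse 1 and 0 without each of the others. The interaction count of 0 came to 61 with DESeq2 and ranged from 0 to 303 when 1 mouse was left out, 303 without mouse 1. The pairing changed no call in the edgeR fits of fibroblasts or of the interaction.

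Of 90 named genes, 83 kept their direction under every alternative that gave a value. Genes named by p or size over all genes had the same sign in 4 of 4 pairs by choice. This count was therefore largely fixed by the selection and is no support for the directions. The other 7 did not. Ogn came to 0.04 with the length trend taken out in edgeR and in DESeq2, Fgf7 to -0.01 in both and without mouse 2 and to 0 in mice 1 and 3, Chil1 to -0.08 in both and to 0 in mice 1 and 3, Fgf10 to 0.04 in mice 1 and 3, and Il33 ranged from -0.19 to 0 and Fgf10 from -0.37 to 0 when 1 mouse was left out. In mice 2 and 4 only, Lcn2 was 0.11, Saa3 0.19 and Il33 0.01, although Lcn2 was -0.72 and Saa3 -0.86 with the length trend taken out, and Saa3 was -0.93 in mice 1 and 3. The EV libraries of mice 1, 2 and 4 had fewer counts than any SF library, so low genes are least precise there, and fits of 2 mice rest on 1 residual degree of freedom.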
